A study of Mus musculus with 8 samples.

Results

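The 8 genes described here detect or relay the presence of double-stranded RNA and other foreign nucleic acid, and they were followed in muscle stem cells made to overexpress Hoxa9. The genes are Ifih1, Ddx58, Dhx58, Eif2ak2, Zbp1, Tlr3, Mavs and Irf3, and they were chosen by name: every non-control probe on the array that carries one of these 8 gene names was used, 11 probes in all, against 34947 gene names on the whole array. The cells were satellite cells, which repair muscle fibres after injury; they came from the hindlimbs of C57BL/6J animals 3 to 4 months old and were sorted, cultured overnight and transduced with lentivirus. Control samples (n = 4 arrays) carry an integrated eGFP cDNA, and the samples compared with them (n = 4 arrays) carry an integrated Hoxa9 cDNA together with eGFP; both groups thus received lentivirus, and both were sorted for eGFP 5 days after transduction. Hoxa9 is a homeobox transcription factor of axial and limb patterning. The labels do not name the promoter that drives the transgenes or tie samples to individual mice. The p-values therefore measure only how far these 8 samples vary, which may be technical. One Cy3-labelled sample was hybridised to each Agilent array, and the number of arrays limits the precision.

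Cells recognise viral RNA in the cytoplasm through a family of RNA helicases. Ifih1 (MDA5) binds long double-stranded RNA and Ddx58 (RIG-I) binds short double-stranded RNA with a 5′ triphosphate; both signal through the mitochondrial adaptor Mavs, which leads to activation of the transcription factor Irf3 and to production of type I interferon. Dhx58 (LGP2) is the third helicase of the family, lacks the signalling domains and modulates the other two helicases. Tlr3 senses double-stranded RNA in endosomes, Eif2ak2 (PKR) is a kinase that halts translation when it binds double-stranded RNA, and Zbp1 binds nucleic acids in the Z conformation and can trigger necroptosis. Several of these sensors are themselves induced by interferon, and in muscle disease MDA5 is known as an autoantigen of dermatomyositis.

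The 3 RNA helicases were higher in the Hoxa9-eGFP samples, and the other measured genes were not called. Of the 7 genes that could be tested, 3 were higher and 0 lower at an adjusted p under 0.05 (limma, Benjamini-Hochberg over all 27099 genes tested). Over all genes, 7.71% were called higher and 7.43% lower, 15.1% in all. Ifih1 was 8.13-fold, Ddx58 3.19-fold and Dhx58 1.95-fold higher, while Eif2ak2, Zbp1, Mavs and Irf3 differed by 0.01 to 0.15 on the log2 scale. The median difference was 0.15 over the 7 genes and -0.08 over all genes. The eighth gene, Tlr3, was not well above background on any array. In RNA from bulk samples, a larger share of cells expressing a gene and more RNA per cell cannot be told apart. All levels below are log2 signals relative to the 75th percentile of the array, and they are compared between samples of 1 probe, not between genes.

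RefSeq start-site windows, from 250 bases before to 50 bases after the start on GRCm38.p6, were held for 6 of the 8 genes, and those of 3 of them contain the core of the interferon-stimulated response element, a pair of GAAA repeats with 2 bases of any kind between them. This is the sequence bound by interferon regulatory factors. The windows of Ifih1, Ddx58 and Eif2ak2 are shown because they carry this core close to the start of transcription, and because the first 2 genes rose and the third was not called. Capitals mark matches to this core or to a second spelling with 1 base between the repeats, on either strand (a match on the other strand reads as its reverse complement). The 2 spellings were chosen with the sequences and the results in view.
Ifih1, chr2:62646206-62646505, minus strand: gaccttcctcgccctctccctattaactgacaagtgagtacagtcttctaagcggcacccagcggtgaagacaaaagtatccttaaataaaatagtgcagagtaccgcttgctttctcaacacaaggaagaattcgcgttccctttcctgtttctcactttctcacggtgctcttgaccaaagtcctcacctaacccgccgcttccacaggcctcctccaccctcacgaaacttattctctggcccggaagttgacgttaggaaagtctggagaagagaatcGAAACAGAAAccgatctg
Ddx58, chr4:40239776-40240075, minus strand: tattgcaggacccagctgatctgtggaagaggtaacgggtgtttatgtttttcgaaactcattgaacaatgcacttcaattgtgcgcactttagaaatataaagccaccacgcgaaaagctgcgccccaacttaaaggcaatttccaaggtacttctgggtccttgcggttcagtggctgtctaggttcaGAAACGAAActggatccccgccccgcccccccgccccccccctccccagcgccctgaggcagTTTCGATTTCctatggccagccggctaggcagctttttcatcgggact
Eif2ak2, chr17:78882523-78882822, minus strand: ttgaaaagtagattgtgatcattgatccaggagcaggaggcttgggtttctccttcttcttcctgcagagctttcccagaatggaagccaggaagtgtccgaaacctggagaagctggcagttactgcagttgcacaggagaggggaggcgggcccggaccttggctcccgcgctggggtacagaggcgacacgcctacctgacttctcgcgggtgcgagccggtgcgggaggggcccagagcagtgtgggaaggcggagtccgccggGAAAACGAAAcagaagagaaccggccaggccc
In Ifih1 the core reads GAAACAGAAA and takes bases 283 to 292 of the 300. In Ddx58 it reads GAAATCGAAA on the other strand, at bases 253 to 262, and the GAAACGAAA of the second spelling stands at bases 191 to 199. In Eif2ak2 the core reads GAAAACGAAA, at bases 269 to 278. The windows of Tlr3, Mavs and Irf3 contain neither spelling, which says only that these letters are absent there. Among all 32851 windows of this length, 3.44% contain the core with 2 bases between and 3.17% the spelling with 1. A match describes the sequence and is not evidence of binding in these cells.

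Ifih1, the helicase of long double-stranded RNA, had the largest difference among the 7 tested genes. At its bright probe (chromosome 2, 62435507 to 62435566, mm9, minus strand) the level was -3.12, -3.24, -2.73 and -2.94 in eGFP replicates 1 to 4. In Hoxa9-eGFP replicates 1 to 4 it was 0.01, 0.01, -0.07 and 0.11. Every Hoxa9-eGFP array lay above every eGFP array, as did 10.9% of all genes, and the 4 Hoxa9-eGFP arrays lay closer together (SD 0.074) than the 4 eGFP arrays (SD 0.22). The log2 difference was 3.02 (SE 0.15, 95% interval 2.68 to 3.37, adjusted p = 3.896e-05, limma). That is a fold of 8.13, with an interval of 6.39 to 10.3. The same-numbered pairs differed by 3.13, 3.26, 2.66 and 3.05. With normexp background correction the difference was 2.29 (adjusted p = 4.419e-06). A second Ifih1 probe, at 62434960 to 62435019, was not well above background on any of the 8 arrays and gives no fold.

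Ddx58, the helicase of short triphosphate-bearing RNA, rose at its brighter probe. There (chromosome 4, 40151893 to 40151952, mm9, minus strand) the eGFP levels were -0.99, -1.22, -1.20 and -1.43. The Hoxa9-eGFP levels were 0.50, 0.55, 0.21 and 0.61. The groups did not overlap, and the lowest Hoxa9-eGFP array, replicate 3, was still clear of the highest eGFP array, replicate 1. The log2 difference was 1.67 (SE 0.16, 95% interval 1.31 to 2.03, adjusted p = 0.0003368, limma), and the pairs differed by 1.48, 1.77, 1.41 and 2.04. The dimmer probe (40151133 to 40151192) was well above background on 0 of 4 eGFP arrays and on 4 of 4 Hoxa9-eGFP arrays, so it passed the filter only through the Hoxa9-eGFP group and adds no test. It read at least 2.84-fold higher (mean -4.23 against -6.11). The bound sets the Hoxa9-eGFP mean against whichever was higher on each eGFP array, the dim probe itself or the lowest detected probe.

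Dhx58, the helicase without signalling domains, rose less. Its probe (chromosome 11, 100556271 to 100556330, mm9, minus strand) read -4.22, -3.72, -3.57 and -3.53 in the eGFP arrays. It read -2.90, -2.80, -2.89 and -2.60 in the Hoxa9-eGFP arrays. Again the groups did not overlap, and eGFP replicate 1 was the lowest of all 8. The log2 difference was 0.96 (SE 0.19, 95% interval 0.53 to 1.39, adjusted p = 0.009926, limma), or 1.95-fold. All 4 pairs were higher in the Hoxa9-eGFP array, by 1.32, 0.91, 0.68 and 0.92. The difference fell to 0.49 with normexp (adjusted p = 0.03494). The 95% interval of Ifih1 lay above those of both other helicases, while those of Ddx58 and Dhx58 met between 1.31 and 1.39; the difference between genes was not tested.

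**Figure D1:**
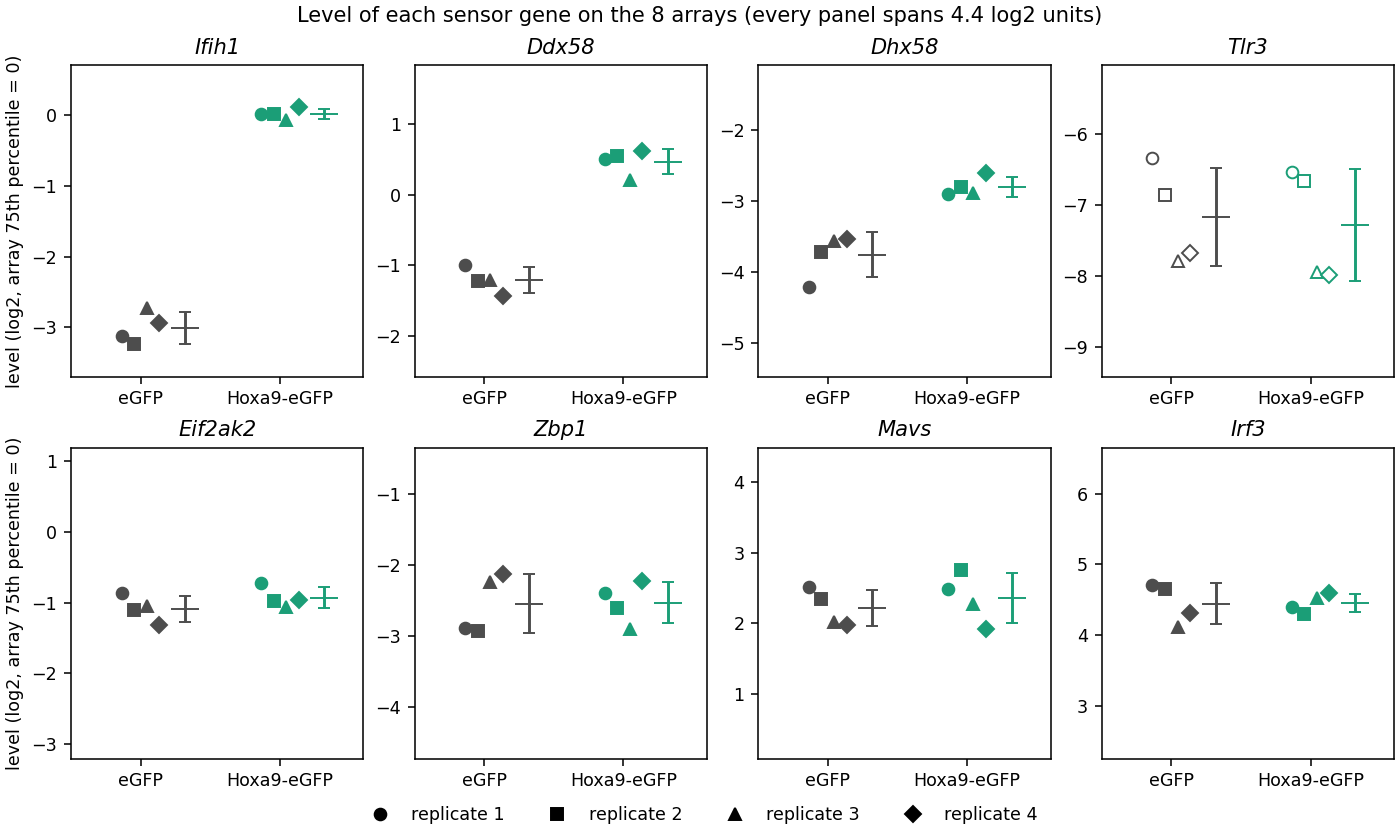
Level of the 8 genes on each array, in log2 units relative to the array's 75th percentile; symbols mark replicates 1 to 4, and bars the mean and SD of 4 arrays. Every panel has the same span; the groups separate for Ifih1, Ddx58 and Dhx58 and overlap in the other panels, and the open symbols of Tlr3 are signals not well above background.

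The remaining sensors gave no call. Eif2ak2, the translation-halting kinase, was measured at chromosome 17, 79252168 to 79252227 (mm9, minus strand). It read -0.87, -1.10, -1.05 and -1.32 in the eGFP arrays and -0.72, -0.98, -1.06 and -0.96 in the Hoxa9-eGFP arrays. The groups overlapped, and the difference of 0.15 (SE 0.15, adjusted p = 0.5363, limma) had a 95% interval of -0.19 to 0.50, or a fold of 0.875 to 1.41. An interval of this width leaves room for a small change in either direction but lies below those of all 3 helicases. That of Dhx58 starts close by, at 0.53, and the difference between genes was not tested. With normexp the differences were 0.11 (SE 0.15) for Eif2ak2 and 0.49 (SE 0.14) for Dhx58.

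Zbp1, the sensor of Z-form nucleic acid, was measured by 2 probes that carry different transcripts. The brighter one (chromosome 2, 173039307 to 173039366, mm9, NM_001139519) read -2.88, -2.93, -2.24 and -2.13 in the eGFP arrays and -2.39, -2.60, -2.90 and -2.22 in the Hoxa9-eGFP arrays. Its difference was 0.02 (SE 0.24, 95% interval -0.54 to 0.58, adjusted p = 0.9729, limma). The dimmer one (173032258 to 173032317, NM_021394) read -4.96, -4.96, -4.14 and -3.74 against -5.13, -6.01, -4.57 and -4.20. It was lower in the Hoxa9-eGFP array in 4 of 4 pairs, by a mean of -0.53, but the groups overlapped and the difference was not called (adjusted p = 0.4829 in the limma fit over probes, 95% interval -1.53 to 0.48). In that fit 6.7% of 40757 probes were higher and 6.65% lower. On the 3 slides the brighter probe gave differences of 0.68, -0.26 and -0.77, so its sign was not shared, and the dimmer one gave 0.76, -1.42 and -0.83. Replicates 1 and 2 were lower than 3 and 4 in both groups at the dimmer probe.

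Tlr3, the endosomal receptor, could not be compared. Its probe (chromosome 8, 46481729 to 46481788, mm9) was not well above background on any of the 8 arrays, with signals of -6.34, -6.85, -7.79 and -7.68 in the eGFP group. The Hoxa9-eGFP signals were -6.53, -6.66, -7.94 and -7.98. No fold is given, since both groups are below the detection limit.

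The adaptor and the transcription factor downstream of the helicases were measured clearly above background on all 8 arrays and did not pass the test. Mavs, the mitochondrial adaptor (chromosome 2, 131073675 to 131073734, mm9, plus strand), read 2.51, 2.34, 2.02 and 1.98 in the eGFP arrays and 2.48, 2.76, 2.28 and 1.92 in the Hoxa9-eGFP arrays. The difference was 0.15 (SE 0.22, 95% interval -0.35 to 0.65, adjusted p = 0.6865, limma). Within slides it was -0.51, 0.60 and 0.29. Irf3, the transcription factor that Mavs signalling activates by phosphorylation (chromosome 7, 52257700 to 52257759, mm9, plus strand), read 4.71, 4.65, 4.11 and 4.31 against 4.4, 4.30, 4.53 and 4.59. The groups overlapped for both genes. Its difference was 0.01 (SE 0.17, 95% interval -0.39 to 0.41, adjusted p = 0.9661, limma), with a sign that changed between settings. These are transcript levels; the activity of either protein was not measured.

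**Figure D2:**
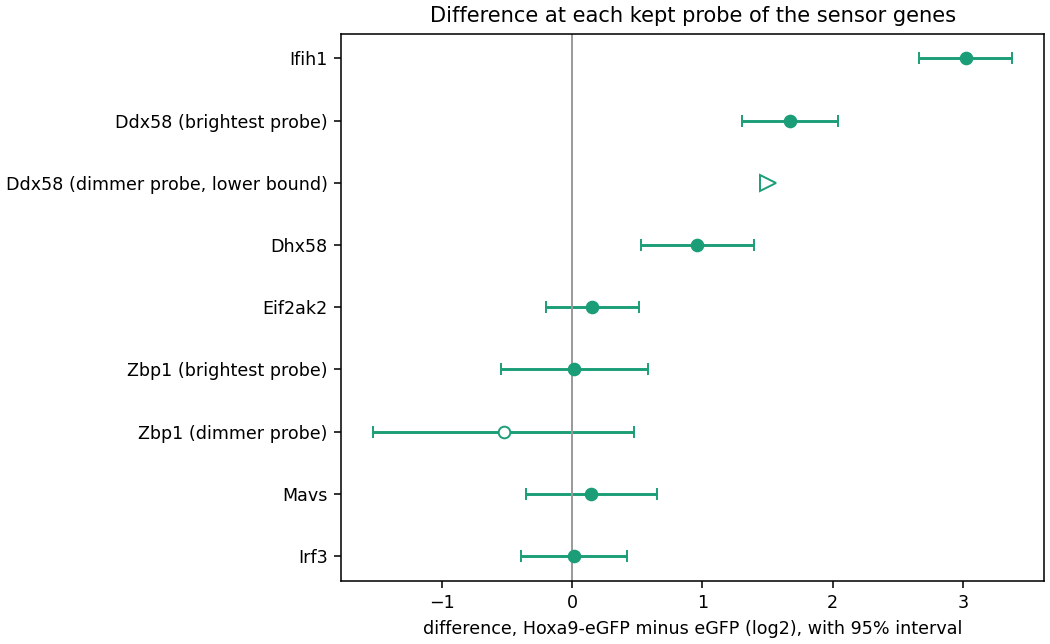
Log2 difference between Hoxa9-eGFP and eGFP arrays (4 each) at the 9 probes of the 7 tested genes that were well above background on at least 4 arrays, with 95% intervals from the fit over probes; the open circle is the dimmer Zbp1 probe, and the open triangle is the lower bound (2.84-fold) of the dimmer Ddx58 probe, which has no interval. The intervals of Ifih1, Dhx58 and the brighter Ddx58 probe lie above 0, and those of Eif2ak2, Zbp1, Mavs and Irf3 include 0.

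The rises of the helicases were seen on each of the 3 slides that held the arrays. Slide 1 held 2 eGFP and 1 Hoxa9-eGFP arrays, slide 2 held 1 and 2, and slide 3 held 1 of each. Each slide difference thus rests on 1 array on at least 1 side, and the slides hold the same arrays as the pairs. Within slides, Ifih1 differed by 3.29, 2.74 and 2.87, Ddx58 by 1.71, 1.72 and 1.64, and Dhx58 by 1.37, 0.72 and 0.64. With the slide as a block the differences were 2.98, 1.70 and 0.93, all called. The experiment number shared by the groups gives pairs, which the main fit did not use. With that number as a replicate block the calls of all 7 genes were the same (adjusted p = 0.001509 for Ifih1, 0.004496 for Ddx58 and 0.01713 for Dhx58, limma).

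**Figure D3:**
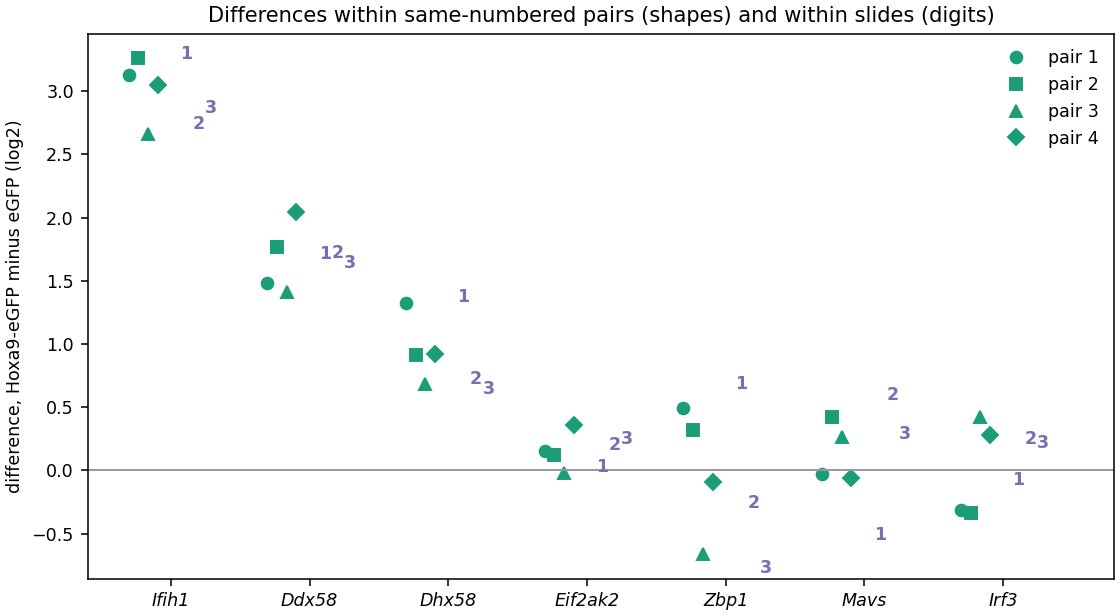
Log2 difference between Hoxa9-eGFP and eGFP for each tested gene within the 4 same-numbered pairs (shapes) and within the 3 slides (digits; each slide's group means). For Ifih1, Ddx58 and Dhx58 all 4 pairs and all 3 slides lie above 0, with Ifih1 between 2.66 and 3.29; the other genes scatter around 0.

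The rest of the pathway was described from 10 lists of 215 genes in all, of which 197 were tested. Of these 32 were higher and 13 lower (16.2% and 6.60%, against 7.71% and 7.43% of all genes), with a median difference of -0.02. The lists were drawn up knowing that interferon-response genes rise in these samples, so their direction is not independent of that result.

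Other sensors of RNA and DNA were described from a list of 30 genes. Of 25 tested, 1 was higher and 3 were lower, with a median of -0.22. Ifit3, an interferon-induced partner of RNA-binding IFIT proteins, rose by 0.94 (SE 0.19, adjusted p = 0.01175, limma), a call lost with normexp (adjusted p = 0.08746). Ifi204, a sensor of DNA, decreased by 1.56 (SE 0.24, adjusted p = 0.003508), from between -0.85 and 0.05 to between -2.40 and -1.67. Cgas, the cytosolic DNA sensor that makes cyclic GMP-AMP, decreased by 0.79 (adjusted p = 0.01432, and 0.09294 with the mean of its probes), and the RNA helicase gene Dhx9 by 0.67 (adjusted p = 0.04596). Among 16 activators and co-factors of the helicases, 0 were higher and 1 was lower, the focal adhesion gene Zyx at -0.85 (adjusted p = 0.02911, and 0.05642 with the replicate block). Cgas and its partner in DNA sensing, Sting1, moved in opposite directions.

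Adaptors, kinases and inhibitors relay or damp the signal of these sensors. Of 22 adaptors and kinases, 2 were higher and 0 lower: Sting1, the membrane adaptor of DNA sensing, by 0.78 (SE 0.13, adjusted p = 0.005234, limma), and Ticam1, the adaptor of Tlr3, by 0.69 (SE 0.18, adjusted p = 0.0348). Tbk1, the kinase that phosphorylates Irf3, differed by 0.39 (95% interval -0.07 to 0.85, adjusted p = 0.2556). Of 25 inhibitors of RNA sensing, 2 were higher and 3 lower. The ubiquitin ligase gene Rnf125, whose product marks RIG-I and MDA5 for degradation, rose by 1.21 and Lgals9 by 1.30 (0.63 with normexp), while Trim59 decreased by 1.47 (adjusted p = 0.000978) and Tnfaip3, the NF-kB inhibitor A20, by 0.93.

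The effectors that respond to interferon had the most higher calls of the 10 lists. Of 42 tested effectors, 16 were higher and 1 lower (38.1% and 2.38%), with a median of 0.56. Irgm2, an interferon-induced GTPase, rose by 2.34 (SE 0.23, adjusted p = 0.0004287, limma) and Parp9 by 1.98 (1.09 with the mean of its probes). Its ubiquitin ligase partner Dtx3l rose by 1.63, from between -2.29 and -1.85 to between -0.63 and -0.24. Ifi27 rose by 1.37 (adjusted p = 0.0004945), with its highest eGFP array at 4.45 and its lowest Hoxa9-eGFP array at 5.53. Isg15, the ubiquitin-like modifier, rose by 0.84 (adjusted p = 0.0314, and 0.05306 with the replicate block). Across the alternatives 13 to 17 of these effectors were higher and 0 to 2 lower.

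The gene of interferon beta itself could not be compared. Ifnb1 was well above background on 1 of 4 arrays in each group, and was not tested. Of 13 tested ligands and receptors, 4 were higher and 0 lower, and the 4 were receptor chains and a kinase: Ifnlr1, Il10rb (1), Ifngr2 (0.86) and Jak1 (0.59, adjusted p = 0.04028, and 0.07087 with the replicate block). Ifnlr1 passed the filter through the Hoxa9-eGFP arrays (-3.30 to -2.78), being well above background on 1 of 4 eGFP arrays (-7.30 to -4.65). Its difference is therefore not measured on both sides, and it has no value where all 8 arrays had to be above background.

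Transcription factors of the response split by member. Of 16 tested, 3 were higher and 2 lower. Irf7, which amplifies interferon production, rose by 1.76 (SE 0.30, adjusted p = 0.005771, limma), and by 0.63 with normexp. It was well above background on 2 of 4 eGFP arrays and likewise has no value where all 8 had to be. Irf9, an interferon regulatory factor, rose by 0.92 (adjusted p = 0.00343), and Stat2 was higher too, by 0.90 (adjusted p = 0.02039, and 0.05271 with the replicate block). Irf8, a factor of myeloid cells, decreased by 1.79 (SE 0.14, adjusted p = 0.0001209; 0.82 with normexp), and Nfkb1 by 0.95.

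Genes around PKR and Zbp1 were described from a further pair of lists. Of 16 eIF2alpha kinases and stress targets, 1 was higher, the endoplasmic reticulum kinase gene Eif2ak3 at 1.04 (SE 0.15, adjusted p = 0.002414, limma), and 2 were lower. These were Trib3 (-0.91, adjusted p = 0.04031) and Asns (-0.68, adjusted p = 0.04335, and 0.07858 with the replicate block), both targets of the stress factor Atf4. Of 8 partners of Zbp1 in necroptosis, 2 were higher, the kinase gene Ripk3 at 1.01 (SE 0.19, adjusted p = 0.009565) and the caspase-8 regulator Cflar at 0.73 (adjusted p = 0.01901, and 0.376 with the mean of its probes). Of 17 genes of RNA editing and decay, 1 was higher (Rnaset2a at 0.87, which its near-identical copy Rnaset2b makes uncertain) and 1 lower (Pnpt1 at -0.55, adjusted p = 0.04001). Adar, the editor that keeps self RNA from activating MDA5, differed by -0.04 (95% interval -0.64 to 0.56, adjusted p = 0.9366), with both groups overlapping.

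Several of these calls lay close to the threshold and were lost when 1 array was left out. The call of Isg15 was lost without eGFP replicate 2 or any 1 of the 4 Hoxa9-eGFP arrays (highest adjusted p = 0.08197). That of Ticam1 was lost without eGFP replicate 2, 3 or 4 or Hoxa9-eGFP replicate 1, 2 or 3 (highest adjusted p = 0.09674), and that of Cflar without eGFP replicate 1, 2 or 3 or Hoxa9-eGFP replicate 3. The call of Stat2 was lost without eGFP replicate 2, 3 or 4 or Hoxa9-eGFP replicate 3. That of Zyx was lost without eGFP replicate 1, 2 or 4 or Hoxa9-eGFP replicate 1 or 4. The calls of Dhx9 and Jak1 were each lost without any 1 of the 8 arrays, those of Trib3 and Pnpt1 without any 1 array other than Hoxa9-eGFP replicate 2. Those of Asns and Rnaset2a were kept only without eGFP replicate 4 and without eGFP replicate 1, respectively, among the 8 omissions. With the slide as a block the calls of Ticam1, Dhx9, Trib3, Pnpt1, Rnaset2a, Zyx, Asns, Jak1 and Isg15 were lost (adjusted p = 0.06065 to 0.1045, limma).

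**Figure D4:**
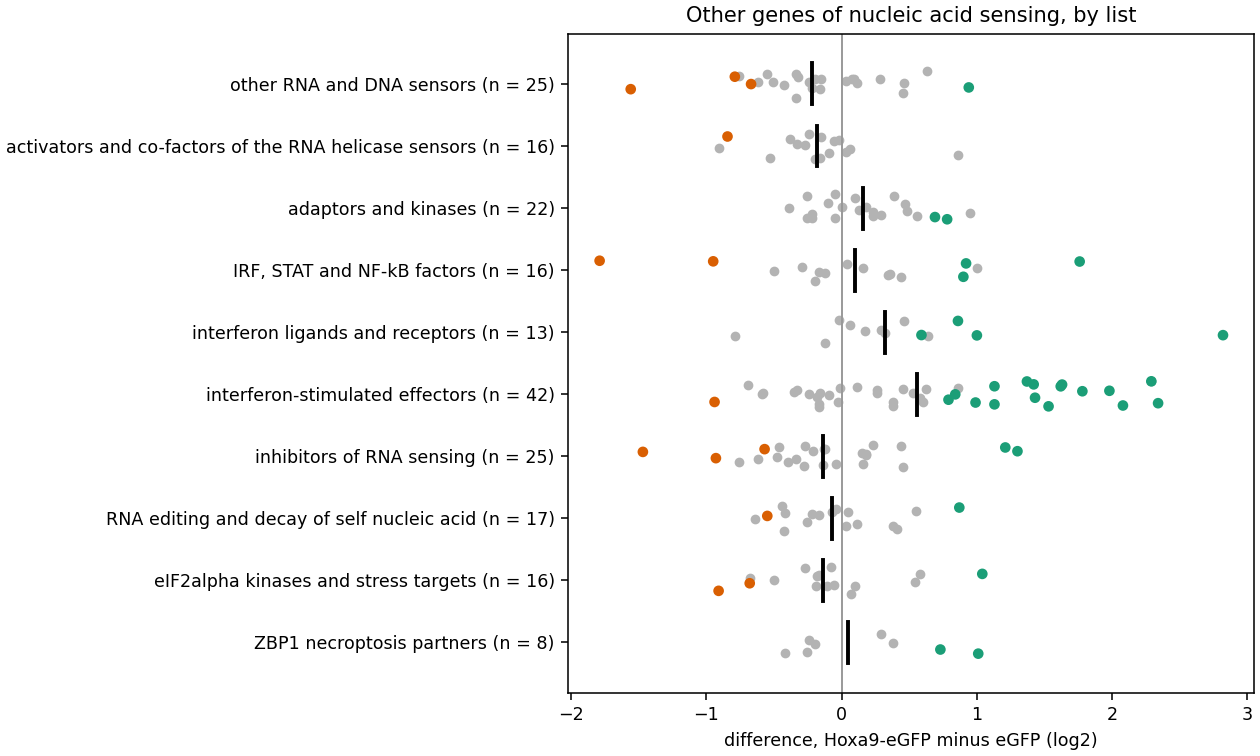
Log2 difference of each tested gene in the 10 pathway lists (each point a gene, 4 arrays per group; green called higher, orange called lower, grey not called; black bar, list median). The interferon-stimulated effectors have 16 of 42 genes called higher and a median of 0.56, and the other list medians lie between -0.22 and 0.32; the rightmost point, Ifnlr1 at 2.82, was well above background on 1 of 4 eGFP arrays.

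The start-site windows of these pathway genes were searched for the same core. It was found in 10 of 24 higher genes with a window (41.7%), among them Irgm2, Isg15, Ifit3 and Stat2. The core was also found in 2 of 11 lower genes (18.2%) and in 22 of 122 genes that were not called (18.0%). Over all genes with a window, 1079 of 27025 hold it. The spelling with 1 base between was found in 20.8% of the higher, 9.09% of the lower and 3.28% of the uncalled genes, and in 1001 of all 27025. The uncalled genes with the core include well-known interferon-stimulated genes such as Cxcl10, Rsad2 and Oas1a. Oas1a was well above background on only 2 of 4 arrays in each group. The 95% interval of Cxcl10 was wide (-1.25 to 0.88), so a change in either gene is not excluded. The shares by call describe the lists, which were picked for interferon and RNA sensing, and were not tested.

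Genes with array profiles most like those of Ifih1 and Ddx58 lay outside nucleic acid sensing. Likeness was the root mean square difference between profiles centred on their mean over the 8 arrays, among 15793 genes with a RefSeq mRNA probe. For Ifih1 the nearest were Bhlhe40 (0.125 log2 units), Rasgef1a (0.161), Plpp3 (0.185), Adamts9 (0.191) and Slc7a2 (0.201). For Ddx58 they were Leng9 (0.096), Pld1 (0.100), Plpp1 (0.148), Cd55b (0.153) and Llgl2 (0.157). Bhlhe40, a transcription factor gene, rose by 3.06, against 3.02 for Ifih1, a closeness that follows from choosing genes by profile.

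The arrays and cells behind these values were checked. Hoxa9 itself read 5.28 to 5.79 in the Hoxa9-eGFP arrays and -0.98 to -0.07 in the eGFP arrays at its brightest probe, without overlap and in the direction of the labels. The difference was 5.97 at that probe and 2.11 with the mean of its kept probes, so the kept Hoxa9 probes did not rise alike. Between 69.6% and 77.5% of non-control spots were well above background, and the 75th percentile was 463 to 685 signal units. All 10 satellite cell and myoblast markers were well above background on all 8 arrays, and 6 of them were lower in the Hoxa9-eGFP arrays. Myod1 (-0.23), Des (-0.59), Cxcr4 (-1.02) and Sdc4 (-0.44) were not called. The summed level of the 10, most of it from the Chrna1 and Itga7 probes, was 287 to 298 against 409 to 538. The calls of Myf5 and Chrna1 were lost with the replicate block (adjusted p = 0.05143 and 0.06022, limma), and those of Itga7, Cdh15 and Chrna1 with the slide as a block. When 1 array was left out, the call of Cdh15 was lost in 8 of the 8 omissions. That of Chrna1 was lost in 6, that of Myf5 in 5 and that of Itga7 in 1. Pax7 and Vcam1 kept theirs in all 19 alternatives. Of 14 macrophage and other immune markers 11 were tested, 0 were higher and 1, Laptm5, was lower. Their summed level, most of it from the Itgam probe, was 33.6 to 48.4 against 37.2 to 57.4, and Ptprc, Lyz2 and Tyrobp were well above background on 0 of 4 eGFP arrays and on 2, 1 and 1 Hoxa9-eGFP arrays. No dendritic cell or lymphocyte marker was called among 4 and 6 tested. Several of them, such as Siglech, Cd4 and Nkg7, were well above background on all 8 arrays. Siglech read 7.45 to 8.04 in the eGFP arrays and 7.58 to 8.02 in the Hoxa9-eGFP arrays. Whether such signals come from immune cells was not tested. Of 7 fibroblast markers 1, Ly6a, which is also interferon-inducible, was higher by 4.55. Lum (-2.61), Pdgfra (-0.64), Col3a1 (-0.47), Col1a1 (0.96), Gsn (0.33) and Dcn (0.12) were not called. Of 4 endothelial markers 1, Vwf, was higher by 0.65 (adjusted p = 0.03582, and 0.05832 with the replicate block, limma). With the mean of its probes Vwf differed by 0.31 (adjusted p = 0.3505), and its call was lost in 6 of the 8 omissions. Cdh5 (-2.07), Pecam1 (-0.57) and Kdr (0.20) were not called. Of 7 smooth muscle markers 1 was higher and 1 lower. Whether the fall of satellite cell markers or the rise of Ly6a has a part in the rise of the helicases was not tested.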

How the data were processed

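The 8 arrays are 1-colour Agilent mouse arrays, read by Agilent Feature Extraction 10.7.3.1 per the submitters' processing notes. The deposited scanner files give a processed intensity per spot, which is background-subtracted by the scanner software per the file headers. The authors' deposited value table is treated as a score, since most of its cells (86.1% to 87.3%) lack a decimal point; with the point restored, 100% of its values lay within 0.05 of the scanner values plus a constant per array. The sources used here do not give its normalization.

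From the intensities, log2 signals minus the 75th percentile of each array were computed, and spots of 1 probe were averaged. Of 55681 probes, the 40757 well above background on at least 4 of 8 arrays passed the filter; the brightest of these stood for its gene (27099 genes). The test was that of limma 3.58.1 under R 4.3.3 (lmFit, eBayes, Benjamini-Hochberg, threshold 0.05). Probe positions are on mm9 as the files give them; no mm9 annotation was used, so exons and UTRs are not named. Start-site windows are from RefSeq.

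Replicate numbers are the experiment numbers of the sample titles. Deviations from the group means correlated by 0.143, 0.228, 0.129 and 0.186 in the 4 same-numbered pairs, all above 0.1. Some differently numbered pairs were as high. The correlation of eGFP replicate 4 with Hoxa9-eGFP replicate 3 (0.188) exceeded all of these but the highest. That of eGFP replicate 3 with Hoxa9-eGFP replicate 4 (0.137) exceeded the lowest. The main fit compared the groups without pairing, and the pairing entered only as the replicate block. Alternatives were 11 other settings and leaving out each of the 8 arrays. On simulated data of 27099 genes, the fit recovered 21 of 100 genes changed by 1 on the log2 scale and 69 of 100 changed by 2, with 8 false calls. The simulation changed far fewer genes than the 4103 called in the data, and its noise was independent between genes. Its shares therefore do not give the recovery in the real data.

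The genes and lists were chosen with earlier results of these data known. Named genes are the 8 genes, Hoxa9, up to 4 called genes per list with the lowest adjusted p, genes named whatever their values (Ifnb1, Irf7, Isg15, Adar, Tbk1 and Ticam1; another is not reported here), and the 5 nearest profiles to Ifih1 and to Ddx58. Stat2, Cgas beside Sting1, the markers and the genes named for a motif were singled out after their values were seen.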

Additional observations from a re-analysis of the deposited data

Results flagged for a closer look

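Among 110 groups of 4 arrays tested for a lone distant array, 1 was found, and chance gives about 1 in 20. Cd55b, one of the genes with a profile like that of Ddx58, read -3.41 in eGFP replicate 4 and -3.17 to -3.14 in the other 3 eGFP arrays. The gap took 0.881 of the range of the group, above Dixon's 95% critical value for 4 samples.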

How the results depend on the processing

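The calls of the 7 tested genes were the same under all 19 alternatives: Ifih1, Ddx58 and Dhx58 were higher (differences of 2.29 to 3.12, 1.49 to 1.78 and 0.49 to 1.04), and Eif2ak2, Zbp1, Mavs and Irf3 were not called. The sign of the uncalled Irf3 and Zbp1 was not stable. Irf3 was -0.01 with the median shift and -0.10 to 0.10 without 1 array; Zbp1 was -0.01 with the median shift, -0.25 with the mean of its probes, -0.05 with the slide as a block and -0.11 to 0.15 without 1 array. Pathway genes called lower numbered 13, against 7 with the median shift, 8 with no filter on dim probes, 6 with the slide as a block and 7 to 13 without 1 array (8 without eGFP replicate 1 or 3 or Hoxa9-eGFP replicate 4, 7 without eGFP replicate 2 or Hoxa9-eGFP replicate 1), and 6 to 19 over all alternatives; the cause was not tested. Those called higher numbered 25 to 37. Over all genes, 1303 were lower without eGFP replicate 2, against 2013. With the replicate block, Ifih1 kept its call (adjusted p = 0.001509, limma); of the called genes named in the text, Zyx, Asns, Jak1, Isg15, Stat2, Myf5, Chrna1 and Vwf lost theirs. The median over all genes was -0.10 to -0.04 across settings. Signal over background limits Tlr3, the dimmer Ifih1 probe and the eGFP side of the dimmer Ddx58 probe.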
